A study of Rattus norvegicus with 36 samples.

Results

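Potassium channel genes outside the Kv4 family were followed in dorsal root ganglia of the rat, which hold the cell bodies of the sensory neurons that serve the limbs and trunk, after ligation of the L5 spinal nerve. Probe sets were taken where the platform annotation gave a single gene symbol beginning with Kcn, and those of Kcnd1, Kcnd2, Kcnd3 and Kcnip2 (7 probe sets) were left out. This gave 90 probe sets of 59 genes among the 26202 probe sets of the arrays that were not controls. Of these, 41 probe sets of 34 genes had a mean signal at or above the 40th percentile of their chip type and were tested, among 15721 tested in all.

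RNA had been pooled from ganglia of 3 kinds: L5 ganglia of rats with L5 spinal nerve ligation, L4 ganglia of ligated rats, and L4 with L5 ganglia together from rats given sham surgery. Each kind was collected at 28 and at 50 days after surgery, which made 6 pools, from 30 rats each where the labels give a number. The labels give no strain, sex or age, and no allele or drug treatment. Each pool was hybridised to 2 arrays of each of 3 chip types (RG_U34 A, B and C), 36 arrays in all. The 2 arrays of a pool were taken as technical, as the L4 and L5 titles state; the sham titles say only replicate, and their descriptions name a pool put on replicate arrays. So the pools of 28 and 50 days stood as the 2 replicates of a condition, and at either day alone there was 1 pool per condition and no test. Because the sham pools mix both ganglia, normal differences between L4 and L5 cannot be told apart from the effect of the ligation. L5 against sham and L4 against sham share the sham pools, and L5 against L4 shares the L5 and L4 pools with both.

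Potassium channels let potassium leave the cell and so set the resting potential, end the action potential and limit repetitive firing. The voltage-gated Kv families (Kcna, Kcnb, Kcnc, Kcnh, Kcnq and the silent Kcnf, Kcng, Kcns and Kcnv subunits that join Kcnb channels) open on depolarisation, inward rectifiers (Kcnj) and leak channels (Kcnk) act near rest, and Kcnn and Kcnma channels respond to calcium. In sensory neurons these currents oppose excitation, and their decline after axon injury is a much studied element of neuropathic pain.

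In L5 ganglia the called potassium channel changes were decreases. Relative to sham, Kcna1 and Kcns1 fell, and relative to L4, Kcns1 and Kcnk1 fell. These calls depended on the processing: none was made in either comparison with no filter on low values, quantile normalization, no intensity trend or a single array of each pool, and there were 7 in each with median centring and 12 and 14 with scaling to hybridisation controls. Those counts are of members alone, and with hybridisation controls many more of all tested probe sets were called against sham too. The calls were 2 of the 41 tested probe sets in each comparison, or 4.88%, where 0.534% of all tested probe sets were called lower in L5 than in sham and 1.01% lower than in L4 (limma, Benjamini-Hochberg adjusted p under 0.05). No member was called higher in L5, where 0.229% of all tested probe sets were called higher than in sham and 0.261% higher than in L4. Without adjustment 11 members of 41 (26.83%) had p under 0.05 in L5 against sham, and these 11 were lower. Among all tested probe sets 16.93% did, with 9.452% lower and 7.474% higher. The median difference of the 41 members was 0.01 on the log2 scale, against 0.04 for all tested probe sets, since members lay on both sides of 0: 20 were below it and 21 above. That split moved with the scaling: 27 were below 0 with median centring, 24 with quantile normalization and 34 with scaling to hybridisation controls, where 59.07%, 51.24% and 81.78% of all tested probe sets were (46.27% in the deposited scaling). Fold differences are of log2(signal + pseudocount), which understates them for dim probe sets.

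Kcna1 encodes Kv1.1, a low-threshold channel of myelinated axons whose loss of function causes episodic ataxia. On its probe set M26161_at the signal was 719.4 and 704.2 in the sham pools of 28 and 50 days, 525.1 and 646.3 in L4 and 309.9 and 389.5 in L5. The 4 L5 arrays, from 295.9 to 409.0, lay below the 4 sham arrays, from 681.3 to 757.5, and below the L4 arrays. The difference from sham was -1.01 ± 0.19 on the log2 scale (SE of the limma fit, n = 2 pools per condition; adjusted p = 0.037), 0.497 times the sham level. Without the sham pool of 28 days it was -0.84 (adjusted p = 0.31) and without that of 50 days -1.17 (adjusted p = 0.080), so the call rested on both. The brighter probe set of Kcna1, X12589cds_s_at, read 832.0 and 1066.6 in sham, 894.9 and 723.5 in L4 and 365.5 and 692.6 in L5. Its difference was -0.88 ± 0.25 (adjusted p = 0.12), and 1 of its L5 arrays at 50 days (796.2) lay above a sham array of 28 days (724.8).

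Kcns1 encodes a silent Kv9 subunit that forms no channel alone and alters channels of the Kcnb family. Its signal was 212.9 and 218.4 in sham, 196.6 and 226.1 in L4 and 70.3 and 109.8 in L5. The single L5 arrays read 36.9 and 103.7 at 28 days and 115.6 and 104.0 at 50 days, below each sham and L4 array. Kcns1 differed from sham by -1.24 ± 0.24 (adjusted p = 0.045) and from L4 by -1.20 ± 0.24 (adjusted p = 0.044). Leaving out the sham pool of 28 days (-1.03, adjusted p = 0.34) or of 50 days (-1.45, adjusted p = 0.097) ended the call against sham, and without the L4 pool of 28 days no member was called against L4.

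Kcnk1 encodes TWIK1, a leak channel with tandem pore domains. Its brighter probe set read 493.8 and 571.8 in sham, 608.3 and 542.6 in L4 and 258.6 and 290.0 in L5, with no L5 array as high as any sham or L4 array. The difference was -1.07 ± 0.18 from L4 (adjusted p = 0.035) and -0.97 ± 0.18 from sham, where it missed the threshold (adjusted p = 0.052). The second probe set of Kcnk1 stood at -0.25 against sham (adjusted p = 0.62), with 133.1 and 173.7 in sham and 100.1 and 160.1 in L5. The plot of array signals shows these genes beside those described next.

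**Figure D1:**
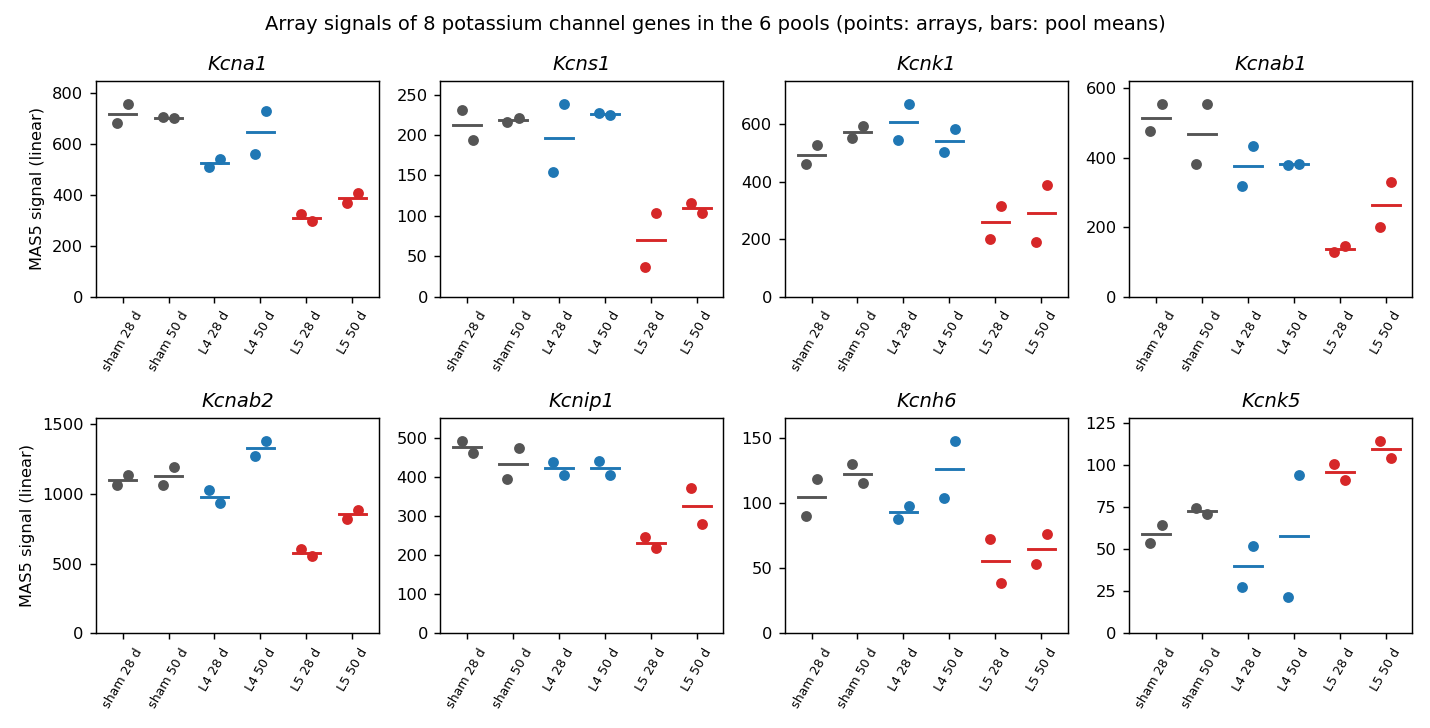
MAS5 signals (linear, vertical axis from 0) of 8 potassium channel genes, with 2 arrays per pool as points and the pool mean as a bar, for sham, L4 and L5 at 28 and 50 days (Kcna1 is probe set M26161_at). The 4 L5 arrays sit below the 4 sham arrays for 7 of the genes, and for Kcnk5 they are the higher ones.

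Across all 41 tested members, the 4 L5 arrays lay wholly below the 4 sham arrays for 7 (17.1%): Kcna1, Kcnab1, Kcnab2, Kcnh6, Kcnip1, Kcnk1 and Kcns1. Over all tested probe sets this was so for 7.58%. They lay wholly above sham for 1 member, Kcnk5, against 4.06% of all tested. Against the 4 L4 arrays, 8 members were wholly below (Kcna1, Kcnab2, Kcnc2, Kcnh6, Kcnip1, Kcnk1, Kcns1 and Kcns3; 19.5%, where all tested probe sets gave 9.06%) and 1, Kcnf1, wholly above (5.22% of all tested). Median centring and scaling to hybridisation controls moved the count outside sham from 8 to 13 and 14. Under them 59.07% and 81.78% of all tested probe sets lay below sham, against 46.27% in the deposited scaling. The count outside sham was not made over all tested probe sets there.

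Promoter sequences of 42 of the 59 genes were held in the RefSeq table (build GRCr8), among them 5 of the 7 genes whose L5 arrays lay wholly below sham, and these are shown so that their letters can be set beside their lower signals. Each is the 250 bases before the annotated start, 5′ to 3′ on the gene's strand. Kcns1 is at chr3:173262347-173262596 on the minus strand, Kcnab1 at chr2:151614301-151614550 on the plus strand, Kcnab2 at chr5:168270761-168271010 on the minus strand, Kcnip1 at chr10:19093026-19093275 on the minus strand and Kcnh6 at chr10:91449401-91449650 on the plus strand. Capitals mark matches on either strand to 6 motifs that were searched: AP-1 (TGANTCA), CRE (TGACGTCA), the left part of the REST site (TTCAGCACC), Sp1 (GGGCGG), the TATA box (TATAAA) and the CAAT box (CCAAT).
Kcns1: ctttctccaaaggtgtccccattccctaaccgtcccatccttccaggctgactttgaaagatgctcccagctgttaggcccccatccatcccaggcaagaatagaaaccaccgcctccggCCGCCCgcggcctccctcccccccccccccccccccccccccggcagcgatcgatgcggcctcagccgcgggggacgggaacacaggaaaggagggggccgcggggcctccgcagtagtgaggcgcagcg
Kcnab1: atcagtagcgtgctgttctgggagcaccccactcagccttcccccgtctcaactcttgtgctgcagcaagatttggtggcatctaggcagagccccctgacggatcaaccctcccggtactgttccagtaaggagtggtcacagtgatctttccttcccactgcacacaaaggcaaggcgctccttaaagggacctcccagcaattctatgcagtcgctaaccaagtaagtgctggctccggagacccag
Kcnab2: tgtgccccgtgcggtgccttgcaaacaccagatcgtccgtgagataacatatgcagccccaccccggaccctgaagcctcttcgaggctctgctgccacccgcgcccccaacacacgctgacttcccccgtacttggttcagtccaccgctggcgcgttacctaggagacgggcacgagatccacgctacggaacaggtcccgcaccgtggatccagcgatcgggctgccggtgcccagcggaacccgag
Kcnip1: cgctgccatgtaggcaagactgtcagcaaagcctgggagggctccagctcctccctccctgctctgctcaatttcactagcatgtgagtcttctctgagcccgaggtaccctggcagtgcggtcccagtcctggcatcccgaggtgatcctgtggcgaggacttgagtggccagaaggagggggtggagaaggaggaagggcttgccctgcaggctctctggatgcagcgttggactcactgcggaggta
Kcnh6: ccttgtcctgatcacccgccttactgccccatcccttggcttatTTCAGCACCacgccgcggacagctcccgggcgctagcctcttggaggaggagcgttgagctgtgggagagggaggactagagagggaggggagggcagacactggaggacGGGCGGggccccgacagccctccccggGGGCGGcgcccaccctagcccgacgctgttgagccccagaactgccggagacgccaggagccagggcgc

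Kcns1 held an Sp1 match on the opposite strand at positions -130 to -125 from the start, and Kcnh6 held 2 Sp1 matches, at -96 to -91 and -69 to -64. Kcnh6 also held the left part of the REST site at -206 to -198. REST is a repressor of neuronal genes. That motif occurred in 0.32% of the 27457 promoters of the table and in 1 of the 42 member promoters. Sp1 matches occurred in 21 of the 42 (50.0%) and in 32.39% of all promoters, and the members' promoters had a median GC content of 61.0% against 52.0%. AP-1 letters were in 2 of the 42, Kcne1 and Kcnj16, against 6.36% of all, and CRE letters in none of the 42, against 1.7% of all. TATA box letters were in 2 of the 42 (13.09% of all) and CAAT box letters in 10 (34.29% of all). Kcnab1, Kcnab2 and Kcnip1 held none of the 6 motifs in this window. The motifs share no letters with each other in these sequences, and a match is a description only.

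The Kcna and Kcnab group, Kv1 pore subunits with their cytoplasmic beta subunits, had 5 of 9 genes tested, and the brightest probe set of each of the 5 lay below sham on both days (29.26% of all tested probe sets did). Their median difference was -0.87, against 0.04 over all tested probe sets. Kcnab1, a beta subunit that speeds inactivation, read 515.1 and 468.7 in sham, 375.9 and 380.8 in L4 and 137.5 and 265.1 in L5. Its L5 arrays, from 129.4 to 329.4, were below each sham array, and the difference was -1.29 ± 0.24 (adjusted p = 0.056). Its dimmer probe set stood at -0.61 (adjusted p = 0.48). Kcnab2, the beta subunit found with Kv1 channels along axons and the brightest member, read 1098.2 and 1132.7 in sham, 979.4 and 1327.7 in L4 and 579.2 and 854.6 in L5. The difference was -0.65 ± 0.19 (adjusted p = 0.12), and L5 arrays overlapped neither sham nor L4. A second, dim probe set of Kcnab2 lay on the other side, at 0.45 ± 0.36 (adjusted p = 0.54), with 41.4 and 91.5 in sham and 98.8 and 78.9 in L5.

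Kcna5 encodes Kv1.5, a delayed rectifier, and read 94.4 and 57.5 in sham, 24.1 and 63.7 in L4 and 26.8 and 35.6 in L5. Its difference of -0.87 ± 0.47 (adjusted p = 0.37) had the largest SE of the 5 genes, and L4 at 28 days was as low as L5. Kcna4, the A-type channel Kv1.4 of small sensory neurons, stood at -0.45 (adjusted p = 0.55). Kcna2, Kcna3, Kcna6 and Kcnab3 had no probe set above the filter. The 2 probe sets of Kcna2, the usual partner of Kcna1 in axons, read between 4.55 and 26.9 over the 6 pools, so its level could not be compared. On the GRCr8 annotation Kcna5, Kcna1 and Kcna6 are neighbours on chromosome 4, and Kcna3 and Kcna2 on chromosome 2.

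**Figure D2:**
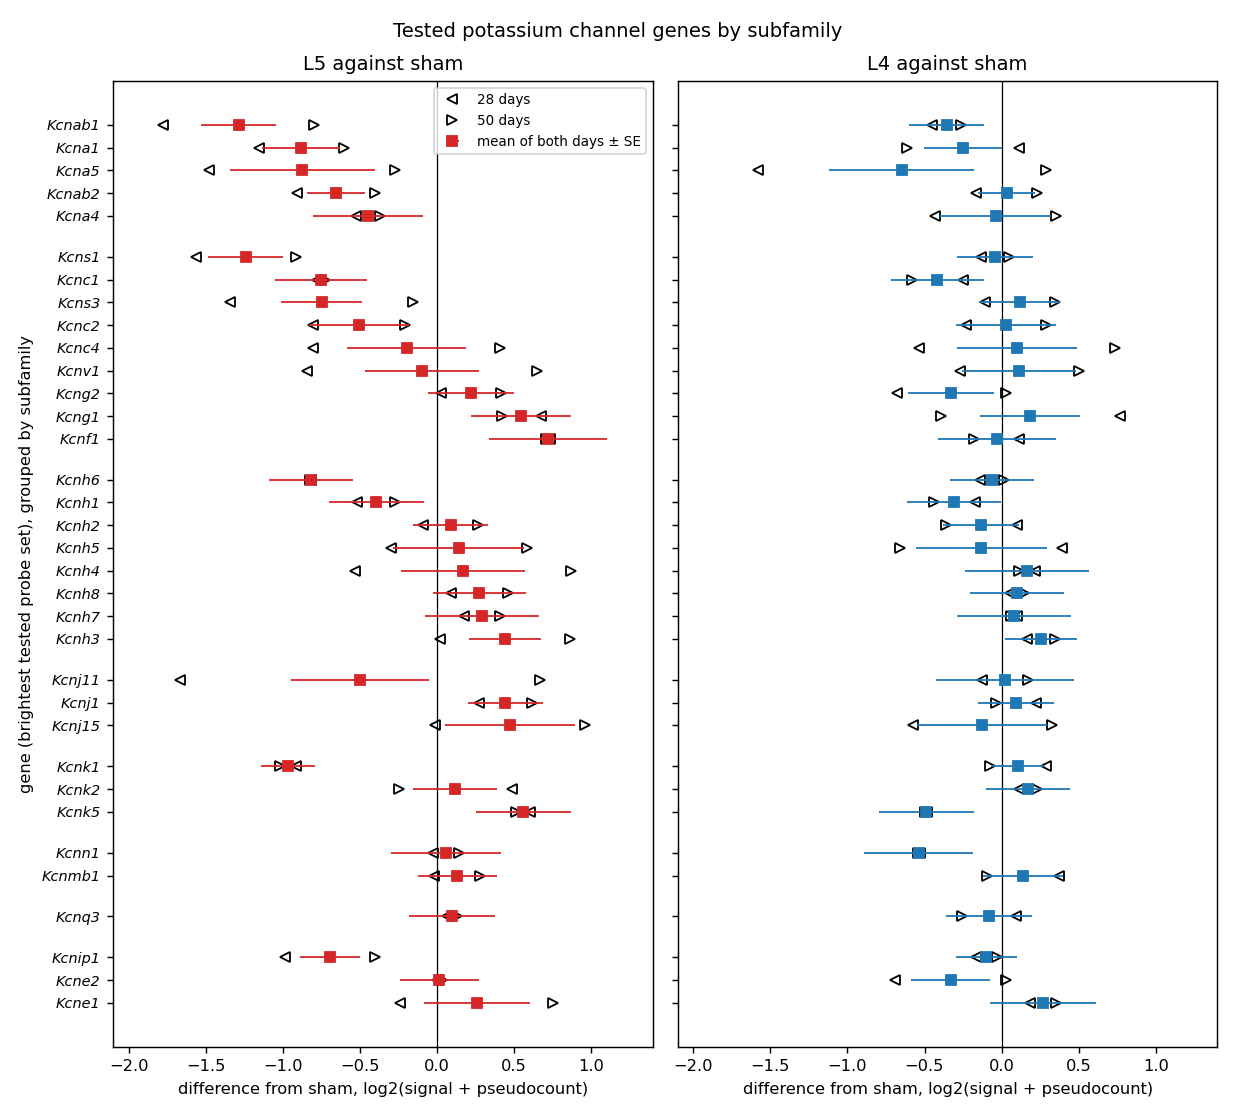
Differences from sham of the 34 tested genes (rows, brightest tested probe set, grouped by subfamily) on the log2(signal + pseudocount) scale, for L5 on the left and L4 on the right, with squares for the mean of both days, bars for the SE of the limma fit and triangles for each day. In L5 13 genes (38.24%) lie left of 0 on both days, where 29.26% of all tested probe sets did. They are the 5 Kcna and Kcnab genes, Kcnc1, Kcnc2, Kcns1, Kcns3, Kcnh1, Kcnh6, Kcnk1 and Kcnip1. On the mean of both days 16 genes lie left of 0 in L5 and 18 in L4.

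Among the other voltage-gated families, 9 of 10 genes of Kcnb, Kcnc, Kcnf, Kcng, Kcns and Kcnv were tested, and 6 lay below sham and 3 above (median -0.20). Besides Kcns1, the second silent Kv9 subunit, Kcns3, read 352.0 and 272.4 in sham, 309.9 and 349.7 in L4 and 125.8 and 245.5 in L5. Its difference of -0.75 ± 0.26 (adjusted p = 0.18) was -1.34 at 28 and -0.15 at 50 days. Kcnc1, the fast Kv3.1 channel that allows rapid firing, read 92.6 and 110.4 in sham, 76.1 and 70.6 in L4 and 48.5 and 64.2 in L5, a difference of -0.75 ± 0.30 (adjusted p = 0.23). Its relatives Kcnc2 and Kcnc4 stood at -0.51 and -0.20, and Kcnv1, a silent subunit, at -0.10. The silent subunits Kcnf1 (0.72 ± 0.38, adjusted p = 0.37), Kcng1 (0.55) and Kcng2 (0.22) lay above sham, Kcng2 not so with scaling to hybridisation controls (-0.10). Kcnf1 read 34.8 and 37.1 in sham and 62.6 and 72.3 in L5, close to the filter. The probe set of Kcnb2, a Kv2 pore subunit, was too dim to test, at 9.70 to 39.1 over the pools.

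The Kcnh family holds the eag, erg and elk channels, and all 8 genes were tested on 10 probe sets, with a median of 0.15 that turned to -0.04 with median centring and -0.23 with scaling to hybridisation controls. Kcnh6, an erg channel, read 104.6 and 122.6 in sham, 93.0 and 126.0 in L4 and 55.6 and 64.6 in L5. The difference was -0.82 ± 0.27 (adjusted p = 0.16), with all 4 L5 arrays below the sham and L4 arrays. Kcnh2, the erg channel that repolarises the heart, differed between its 2 probe sets. On Z96106_at it read 179.4 and 216.0 in sham, 171.0 and 226.9 in L4 and 76.5 and 123.3 in L5 (-0.98 ± 0.23, adjusted p = 0.071). On the slightly brighter U75210_s_at it read 158.4 and 205.8, 170.6 and 157.4, and 148.1 and 249.9 (0.09 ± 0.25, adjusted p = 0.88), and this sign turned with median centring (-0.11) and scaling to hybridisation controls (-0.35). Which of them follows the transcript was not tested.

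Kcnh3, an elk channel and the brightest gene of the family, read 251.4 and 246.8 in sham, 287.5 and 315.2 in L4 and 264.4 and 454.1 in L5, a difference of 0.44 ± 0.23 (adjusted p = 0.36). That sign turned with scaling to hybridisation controls (-0.0096), under which the median of all tested probe sets was itself -0.34. Kcnh1, an eag channel, stood at -0.39 ± 0.31 (adjusted p = 0.54), and Kcnh4, Kcnh5, Kcnh7 and Kcnh8 between 0.14 and 0.29, all 4 below 0 with scaling to hybridisation controls. Kcnh4 (-0.026) and Kcnh5 (-0.053) were also below 0 with median centring, and Kcnh5 (-0.028) with quantile normalization. No member of the family was called.

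Inward rectifiers (Kcnj) were mostly dim: 15 genes had 23 probe sets, and 4 probe sets of 3 genes were tested. Kcnj11 encodes Kir6.2, the pore of the ATP-sensitive channel, and read 120.6 and 110.2 in sham, 105.2 and 127.4 in L4, and 27.9 at 28 and 181.9 at 50 days in L5. At 28 days its L5 arrays (30.6 and 25.1) were below the sham arrays (85.5 and 155.8), and at 50 days (205.2 and 158.6) above them (126.5 and 93.9). The mean of both days, -0.50 ± 0.45 (adjusted p = 0.59), therefore describes neither day. Kcnj1, a channel known from the kidney, read 105.1 and 153.7 in sham and 129.9 and 240.1 in L5 (0.44 ± 0.25, adjusted p = 0.38), and its second tested probe set stood at 0.58. Kcnj15 read 66.9 and 18.2 in sham and 66.6 and 46.3 in L5 (0.47 ± 0.42, adjusted p = 0.59). The genes not tested were Kcnj2, Kcnj3, Kcnj4, Kcnj5, Kcnj6, Kcnj8, Kcnj9, Kcnj10, Kcnj12, Kcnj13, Kcnj14 and Kcnj16. Kcnj8 lay at the filter, with a mean signal of 39.31. Kcnj10, the Kir4.1 channel of satellite glia, read 14.3 and 8.95 in sham, 21.9 and 12.6 in L4 and 47.6 and 15.2 in L5 on its brighter probe set.

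Of the leak channels (Kcnk), 3 of 5 genes were tested. Kcnk5, an acid-sensitive leak channel, read 58.9 and 72.7 in sham, 39.8 and 57.8 in L4 and 96.1 and 109.3 in L5. Its 4 L5 arrays, from 91.3 to 114.3, lay above the sham arrays, from 53.5 to 74.6, with a difference of 0.56 ± 0.31 from sham (adjusted p = 0.38) and 1.05 ± 0.31 from L4 (adjusted p = 0.11). Kcnk2, the mechanically gated TREK1 channel, read 91.6 and 93.7 in sham, 100.7 and 113.2 in L4 and 135.5 and 76.9 in L5 (0.12 ± 0.27, adjusted p = 0.85). That sign turned with scaling to hybridisation controls (-0.20). Kcnk3 and Kcnk6 were below the filter.

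Calcium-activated channels, with Kcnt1 grouped beside them, gave little to compare. Of the 6 genes of the Kcnn, Kcnma, Kcnmb and Kcnt group, Kcnn1, a small-conductance channel, stood at 0.06 ± 0.35 (adjusted p = 0.95), with 73.1 and 48.8 in sham and 66.8 and 57.9 in L5. Kcnmb1, the beta subunit of the large-conductance channel of smooth muscle, stood at 0.13 ± 0.26 (adjusted p = 0.82), with 114.6 and 147.7 in sham and 132.0 and 181.4 in L5. Kcnma1, the pore of that channel, had 4 probe sets, and none reached the filter, nor did those of Kcnn3, Kcnn4 and Kcnt1. Kcnq3, a subunit of the neuronal M-current channel, read 80.3 and 103.5 in sham, 85.5 and 84.9 in L4 and 83.7 and 115.6 in L5 (0.10 ± 0.28, adjusted p = 0.88), while Kcnq1 was not tested. Under scaling to hybridisation controls and median centring Kcnn1 (-0.31 and -0.14), Kcnmb1 (-0.30 and -0.06) and Kcnq3 (-0.32 and -0.10) lay below sham, so no direction can be given for them.

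Accessory subunits were read on 5 probe sets. Kcnip1, a calcium-binding subunit that joins Kv4 channels, read 478.0 and 434.8 in sham, 423.7 and 424.3 in L4 and 232.7 and 326.9 in L5. Its L5 arrays, from 217.9 to 372.1, were below each sham and L4 array, and the difference was -0.69 ± 0.20 (adjusted p = 0.14). From the same pools, the Kv4 genes Kcnd1 (-1.40 ± 0.18, adjusted p = 0.021) and Kcnd3 (-1.65 ± 0.27 on 1 of its 2 probe sets, adjusted p = 0.025) fell, while the second probe set of Kcnd3 stood at 0.37, Kcnd2 at -0.09 and Kcnip2 at -0.21, none of them called. Kcne1 and Kcne2, small membrane subunits, stood at 0.26 and 0.01, with 52.4 and 71.4 in sham and 38.5 and 129.7 in L5 for Kcne1, and 105.5 and 103.1 in sham and 104.8 and 105.4 in L5 for Kcne2. Both lay below sham with scaling to hybridisation controls (-0.14 and -0.35). Kcnip3, whose product also acts as the repressor DREAM, was below the filter.

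In the uninjured L4 ganglia of ligated rats no member was called in either direction, and none of all tested probe sets was (0% higher and 0% lower). Every member's adjusted p was 0.9995, with differences from sham between -0.65 (Kcna5) and 0.45 (the dim probe set of Kcnab1). No member had an unadjusted p under 0.05, against 2.716% of all tested. No member had all 4 L4 arrays below or above the sham arrays, where 1.88% and 1.95% of all tested probe sets did. A p that misses the threshold does not show that L4 and sham were alike: for Kcna1 on M26161_at, L4 at 28 days (525.1) lay below both sham pools. The brighter probe set of Kcna1 did not share this, with L4 at 28 days (894.9) between the sham pools of 28 (832.0) and 50 days (1066.6).

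Bright and dim members differed in how they stood to sham. Of the 8 members at or above the 80th percentile of signal on their chip type, 7 lay below sham in L5, with a median of -0.82, and each of the 7 had an unadjusted p under 0.05. These are probe sets, and both of those of Kcna1 are among the 7. Among all tested probe sets that bright, 58.17% lay below sham, the median was -0.08, and 18.18% were lower with p under 0.05. The exception was Kcnh3, and with scaling to hybridisation controls all 8 lay below 0. Of the 23 members between the 40th and 60th percentiles 8 lay below sham (34.78%), next to 37.25% of all probe sets in that range, and of the 10 between the 60th and 80th percentiles 5 did. With the filter at the 60th percentile the members' median difference was -0.67, against 0.01 at the 40th. The median SE of a member was 0.30, from 0.18 to 0.47.

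**Figure D3:**
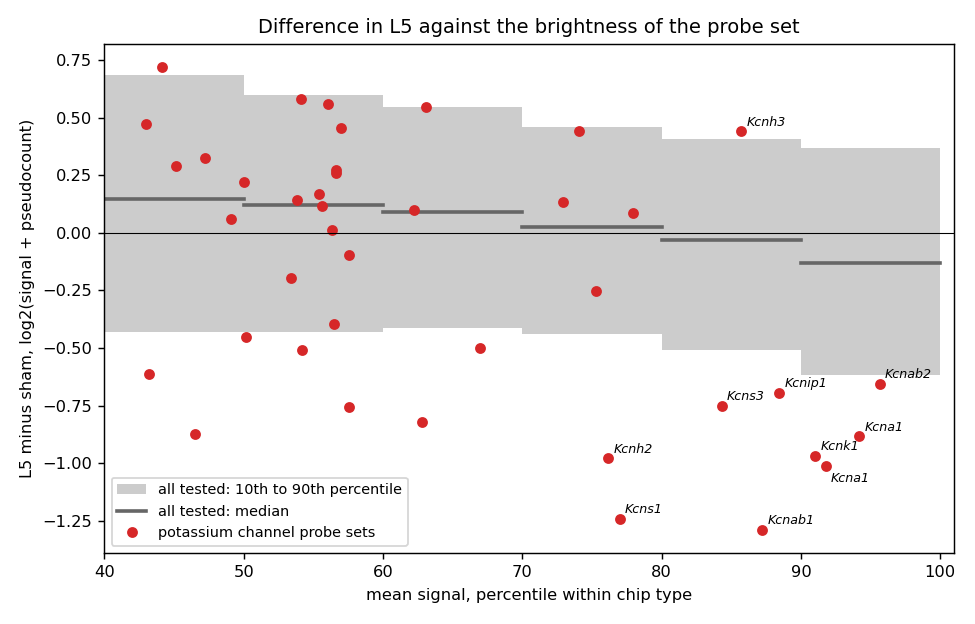
L5 minus sham on the log2(signal + pseudocount) scale (vertical axis) against the percentile of mean signal within the chip type (horizontal axis) for the 41 tested members (points), with the median and the 10th to 90th percentile of all tested probe sets as lines and grey boxes. Of the 8 members at or above the 80th percentile, 7 lie below 0, both probe sets of Kcna1 among them, and Kcnh3 lies above.

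In the deposited scaling more members lay far below sham at 28 than at 50 days. At 28 days 8 members (19.5%) were lower in L5 by at least 1 on the log2 scale with the arrays of the pools apart: both probe sets of Kcna1, Kcna5, Kcnab1, Kcnh2 (Z96106_at), Kcnj11, Kcns1 and Kcns3. Among all tested probe sets 2.35% were. The dim probe set of Kcnab2 was the only member higher by as much (2.79% of all tested). At 50 days 1 member, Kcnk1 (-1.02), was lower by that much, against 2.54% of all tested, and none was higher, against 3.29%. The contrast between the days shrank with other scalings: counted in both directions, 9 members at 28 days and 1 at 50 days became 10 and 5 with median centring, 9 and 3 with quantile normalization and 13 and 11 with scaling to hybridisation controls. Under these scalings the median of all tested probe sets in L5 against sham was -0.085, -0.011 and -0.34. The counts were not made over all tested probe sets there, so whether the shrinking is particular to the members was not tested. Of the 20 members below sham on the mean of both days, 17 were nearer to 0 or above it at 50 days, as were 48.58% of the 7274 probe sets below sham in all. Kcnab1 went from -1.78 to -0.80, Kcns1 from -1.56 to -0.92 and Kcnip1 from -0.99 to -0.40, whereas Kcnh6 (-0.82 at both days) and Kcnk1 (-0.92 and -1.02) did not follow this course.

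Values at 50 days were above those at 28 days for 37 of 41 members (90.24%), against 54.13% of all tested probe sets, with a median of 0.27 against 0.04. The other scalings gave 33 or 34 members above 0, next to 44.69% to 50.56% of all tested. In L5 alone 36 members were higher at 50 days (median 0.55, all tested 0.05), in sham 27 (0.15, all tested 0.02) and in L4 26 (0.17, all tested 0.03). None was called in 50 against 28 days (limma), where 0.102% of all tested probe sets were higher and 0.184% lower at 50 days. The smallest adjusted p among the members was 0.17, and 7 members (17.07%) had an unadjusted p under 0.05, next to 18.72% of all tested. Day and pool cannot be told apart, since each condition had 1 pool per day.

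**Figure D4:**
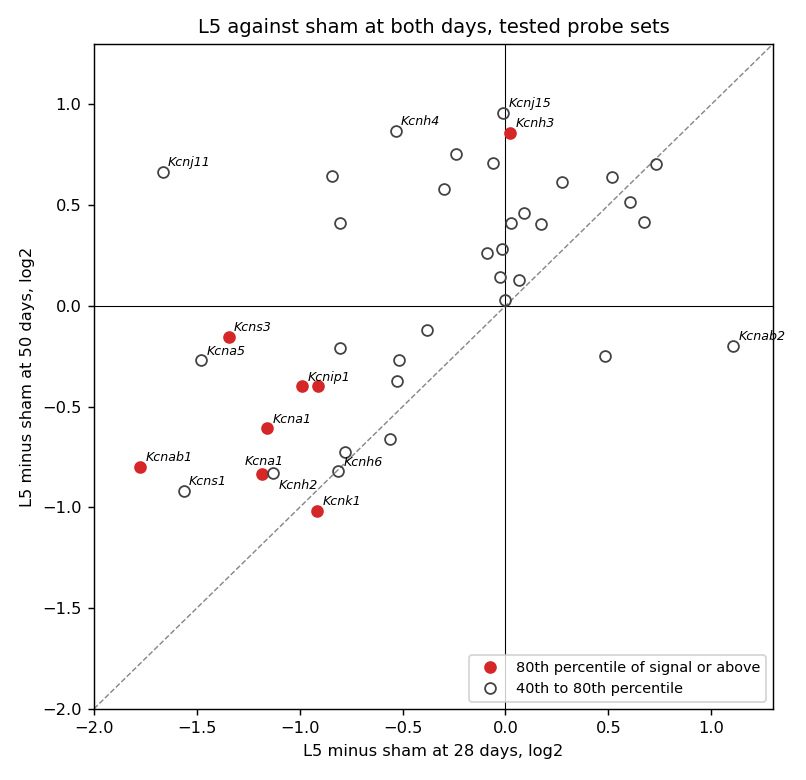
L5 minus sham at 50 days (vertical axis) against 28 days (horizontal axis), both on the log2(signal + pseudocount) scale, for the 41 tested members, with filled points for the 8 brightest and a dashed line of equality. Of the 20 members below 0 on the mean of both days, 17 are nearer to 0 or above it at 50 days, as were 48.58% of all tested probe sets so placed. Kcnj11 lies far below 0 at 28 days and above 0 at 50 days.

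Proteins that bind or steer potassium channels were read from a list of 33 genes, of which 17 were tested. None was called against sham. In L5 14 of the 17 lay below sham, with a median of -0.51 against 0.04 for all tested probe sets, and the median against L4 was -0.11. Of the 3 above sham, the postsynaptic scaffold gene Dlg4 lay farthest (0.69 ± 0.24, adjusted p = 0.18). The differences from sham farthest from 0 were those of Cntn1, the adhesion protein contactin of the paranode (-1.22 ± 0.32, adjusted p = 0.10), Amigo1, an auxiliary subunit of Kv2 channels (-1.03 ± 0.35, adjusted p = 0.17), Rgs4, a regulator of G protein signalling (-0.80 ± 0.20, adjusted p = 0.096), and Gnb5, a G protein beta subunit that pairs with the Rgs7 class of regulators (-0.72 ± 0.18, adjusted p = 0.10). Against L4, 2 of the 17 were called (limma): Cntn1 was lower (-1.85, adjusted p = 0.027) and Lgi1, a secreted protein that binds Adam22, higher (0.83, adjusted p = 0.047). Of all tested probe sets 1.01% were called lower and 0.261% higher than in L4. Part of both differences lay in L4: against sham, L4 stood at -0.49 for Lgi1 and 0.64 for Cntn1. Lgi1 in L5 stood at 0.34 against sham (adjusted p = 0.32).

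Markers of cell types moved with the same comparison. Of 21 tested general neuron markers 19 lay below sham in L5 (median -0.36), and their summed signal was 52994.7 and 63712 in sham, 56137.5 and 61096.4 in L4 and 48284.1 and 50605.4 in L5. Large-diameter neuron markers (16 genes, median -0.32) did so at 28 days (-0.53), with a summed signal of 24852 in L5 and 33832.8 in sham. At 50 days their median was -0.0087 and the summed signal was 32740.6 in L5 and 31615.8 in sham. Nociceptor markers (17 genes, median -0.37, summed signal over the pools 8884.2 to 14631.3) and satellite glia markers (12 genes, median -0.32, summed signal 14580.5 to 16906) had medians below 0. Macrophage markers (17 genes, 0.61) were highest in L5 at 28 days, with a summed signal of 7571.3 against 2865.1 to 3193.6 in the other 5 pools. Skeletal muscle markers (19 genes, 0.81) had summed signals of 6648.7 and 5133.5 in L5 and 2811.1 to 4205.1 in the others, myelinating Schwann cell markers (11 genes, 0.39) ran from 19821 to 26562.8, and vessel and smooth muscle markers (11 genes, 0.05) from 1237.3 to 1699.6. In bulk RNA fewer neurons and less RNA per neuron cannot be told apart, and the part of these markers in the channel differences was not tested.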

How the data were processed

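Members, gene lists and tests were chosen with earlier results of these data known. The deposited values are MAS5 signals, each a linear intensity of 1 probe set, as the submitters' processing notes name them without a version. The trimmed mean of each array, without the highest and lowest 2% of values, was 150.1 to 150.2. No detection calls were used, and having 1 pool per condition and day limits the precision. Gene names come from the platform annotation. All 59 symbols were found in the RefSeq table (GRCr8).

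Log2(signal + pseudocount) was computed with a pseudocount at the 20th percentile of the signals on each chip type (12.8 on A, 17.7 on B, 20.2 on C). Probe sets with a mean signal under the 40th percentile (39.31 on chip A) were not tested. The 2 arrays of a pool were averaged (median absolute difference between them, 0.35 on the log2 scale over tested members), and limma 3.58.1 in R 4.3.3 was fitted to the 6 pools with condition and day as terms and an intensity trend, leaving 2 residual degrees of freedom. Benjamini-Hochberg adjustment ran over all 15721 tested probe sets, at 0.05. P-values rest on how the difference between the days varied among the conditions, a spread that limma moderates over probe sets. They do not measure the spread between animals. One chip B sham array is 28 days by its title and 50 days by its description; the title was used, and its deviations correlated at 0.27 with the other 28-day sham array and at -0.02 with both 50-day arrays. The script was tested on simulated data.

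Named with values in each pool were called genes and, in each subfamily, the 3 with the largest differences and the brightest; other members are given by difference or range. A gene stands for its brightest tested probe set. Kcnf1, Kcnh2, Kcnj10, Kcnv1, Dlg4 and the Kv4 genes are given beyond this rule, after their values were seen. Alternatives tried were other pseudocounts, filters and scalings, no trend, single arrays, random and replicate blocks, each pool left out and the disputed array left out.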

Additional observations from a re-analysis of the deposited data

Results flagged for a closer look

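For 3 genes both L5 arrays lay on one side of both sham arrays at 28 days and on the opposite side at 50 days. This difference between days was not tested, since there was 1 pool per condition and day. Such genes were not counted over all tested probe sets, so whether 3 is many for this list was not tested. Kcnj11, the pore of the ATP-sensitive channel, differed from sham by -1.666 on the log2 scale at 28 days and by 0.6652 at 50 days. This was on its only tested probe set, and its others were too dim to test. Kcnv1, a silent subunit, read 66.3 and 74.0 in sham, 55.0 and 111.2 in L4 and 32.0 and 124.2 in L5 at 28 and 50 days, which gave differences of -0.8411 and 0.6458. Kcnh2 on its brighter probe set differed by -0.08917 and 0.2645, while its other probe set lay below sham at both days (-1.13 and -0.83).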

How the results depend on the processing

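Calls among the members changed with most settings, and the cause was not tested. L5 against sham gave 2 called members, and 0 with no filter, with quantile normalization, with no intensity trend, and with the first or the second array of each pool alone. It gave 4 with the filter at the 60th percentile, 7 with median centring, 12 with scaling to hybridisation controls (2190 probe sets called in all, against 120), 7 in a fit of the 12 single arrays with pools as a random block, and 7 with the array number as a replicate block besides. The array numbers name technical arrays and pair nothing. L5 against L4 gave 2, and 0 with no filter, quantile normalization, no trend and either array alone, 7 with median centring, 14 with hybridisation controls, 8 with the random block and 7 with the replicate block. With 1 pool left out the counts ran from 0 (without either sham pool) to 10 (without the L5 pool of 50 days) for L5 against sham, with 8 without either L4 pool, from 0 (without the L4 pool of 28 days) to 10 (without the L5 pool of 50 days) for L5 against L4, and from 0 to 1 (Kcnj11, without either L4 pool) for 50 against 28 days. L4 against sham gave 0 in each. Apart from the totals given for hybridisation controls, these are counts of members alone. They do not show whether members moved more than all tested probe sets. A filter on the mean log2 value, chosen after seeing the data, added Kcnk1 (adjusted p = 0.049).

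The median of -0.67 with the filter at the 60th percentile and -0.35 with hybridisation controls stood against 0.01, and leaving out 1 pool gave -0.38 to 0.092. Members with L5 arrays outside sham rose from 8 to 13 with median centring and 14 with hybridisation controls. These counts, and those at 50 days that follow, were made for members alone and not over all tested probe sets. At 50 days members at least 1 apart numbered 1, and 2 with the pseudocount at the 10th percentile, 0 with that at the 50th, 2 with no filter, 5 with median centring, 3 with quantile normalization and 11 with hybridisation controls.

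The direction of 8 of the genes named by the rule above turned with a setting, among them Kcnh3, which is bright, and Kcnj11, whose days differ. Outside that rule Kcng2 (-0.095) and the brighter probe set of Kcnh2 (-0.35) turned with hybridisation controls. Kcnh4 (-0.21), Kcnh5 (-0.25), Kcnh7 (-0.084) and Kcnh8 (-0.12) did so too. With median centring Kcnh4 (-0.026), Kcnh5 (-0.053) and the brighter probe set of Kcnh2 (-0.11) also turned, and with quantile normalization Kcnh5 (-0.028). Median centring gave Kcne2 -0.079, Kcnmb1 -0.062, Kcnn1 -0.14 and Kcnq3 -0.10. Quantile normalization gave Kcne2 -0.076, Kcnn1 -0.11 and Kcnq3 -0.063. Hybridisation controls gave Kcne1 -0.14, Kcne2 -0.35, Kcnh3 -0.0096, Kcnk2 -0.20, Kcnmb1 -0.30, Kcnn1 -0.31 and Kcnq3 -0.32. The first array alone gave Kcnk2 -0.14, Kcnmb1 -0.30 and Kcnn1 -0.38, and the second Kcne1 -0.18, Kcne2 -0.083 and Kcnq3 -0.028. Leaving out 1 pool gave -0.20 to 0.71 for Kcne1, -0.17 to 0.20 for Kcne2, -1.59 to 0.59 for Kcnj11, -0.28 to 0.51 for Kcnk2, -0.14 to 0.40 for Kcnmb1, -0.031 to 0.15 for Kcnn1 and -0.023 to 0.22 for Kcnq3. Kcna1 on M26161_at (-1.46 to -0.84) and Kcns1 (-1.65 to -0.92) kept their direction under each setting.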
